A study of Mus musculus with 4 samples.

Results

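The genes described here encode membrane carriers of ions and small organic solutes in 11 families of the solute carrier (Slc) series: Slc4, 5, 6, 9, 12, 13, 16, 22, 26, 34 and 38. Members were all genes whose mouse symbol, reached through the accession of a non-control probe, begins with one of these family names followed by a member number, with Slc4a1, Slc26a4 and Slc16a3 left out. This rule found 121 genes among 17305 named genes on the array. Of the 121, 3 encode no carrier but a protein named after one, namely the adaptors Slc9a3r1 and Slc9a3r2 and Slc4a1ap, and 118 encode carriers. Several carriers among the members, such as Slc38a7, Slc38a9 and Slc26a11, are known mainly from lysosomes, so plasma membrane describes most members and not every one.

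RNA came from intact ureteric buds of mouse kidney, the epithelial outgrowths that branch into the collecting duct system, and had been cultured for 6 h either in media or in media with 1e-05 M angiotensin II (AngII), the hormone through which renin raises blood pressure. Buds of both groups lay in a matrix gel on an insert in medium that held GDNF and HGF at 100 ng/ml each beside 10% serum, so the media group also received these growth factors. Strain, embryonic age and the number of buds pooled are unknown here. By the labels there were 2 numbered pairs of RNA, one member of each from AngII, and every pair was read on 2 two-colour arrays with the dyes exchanged, which makes 4 arrays. Every value below is a log2 ratio of AngII over media unless called otherwise, and the comparison asks which transcripts differ after AngII.

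Slc carriers move solutes across membranes either down their own gradient or against it by coupling to sodium, protons, chloride or potassium. In the kidney epithelium they set cell volume, cell pH and the uptake of amino acids and organic osmolytes, and in the mature nephron they reclaim filtered sugar, phosphate, sulfate and amino acids. Slc12 cotransporters and the Slc4, Slc9 and Slc26 exchangers handle chloride, bicarbonate and protons. Slc5, Slc6 and Slc38 carriers use the sodium gradient to import sugars, osmolytes and amino acids, Slc16 carriers move monocarboxylates and thyroid hormone, and Slc22 carriers move organic ions.

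Before the results, 3 facts on the arrays apply to all of them. Ratios of the numbered replicates correlated at r = 0.98 across 14995 tested features, which are not independent replicates, and their half-difference had an SD of 0.04, against 0.04 for the contrast that holds array noise alone (ratio 1.02). In limma 0 features differed between replicates at an adjusted p under 0.05 and 771 at an unadjusted p under 0.05, so they agree within array noise and count as 1 independent pair. The labels name no separate animals or cultures. For the AngII ratio, limma p-values below come from values averaged over the exchanged dyes of each pair. They measure the spread between these averages of the same RNAs only, and leave out the dye difference between hybridisations. The fit with the replicate block, described below, keeps that difference as error. The dye mattered more than the replicate: 0.5 times the difference between dye orientations had an SD of 0.16, against 0.38 for the AngII contrast, and the sign turned with the dyes on all 4 arrays for 21.7% of features.

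The ureteric origin was checked with 13 markers, of which 12 were tested, among them Cdh1, Krt8, Gata3 and Wnt9b, while the tip receptor Ret was above background on too few arrays to enter the test. Of 6 loop of Henle and distal tubule markers none was tested, and of 7 proximal tubule markers 3 were. Erythroid markers moved with the treatment: 6 of 7 tested were higher under AngII, and their summed normalised intensity was 32144 to 39754.5 in the AngII channels and 5940 to 7059 in the media channels, while 2 other markers on the array were not tested. Nephron progenitor markers summed to 5698 to 6689 under AngII and to 5915 to 6703 in media, leukocyte markers to 805 to 870 and 730 to 779, endothelial markers to 1740 to 1989 and 1894 to 2174, and neural markers to 438 to 577 and 632 to 733. Proximal tubule markers summed to 444 to 476 under AngII and to 361 to 421 in media. Stromal markers summed to 65825 to 74085 and 63670 to 72959, with Acta2 at 1.69, Cspg4 at 1.07 and Tagln at -0.36. Ureteric markers summed to 221807 to 245834 and 239998 to 313231, with Wnt9b at 1.53 and Krt8 at -0.59. A sum follows its brightest markers, such as Krt8 (mean log2 intensity 16.6), and single markers went both ways. Of 12 ureteric markers 6 rose and 4 fell, and of 7 leukocyte markers 3 rose and 4 fell. Endothelial markers had 1 higher and 5 lower of 7, and nephron progenitor markers 2 higher and 5 lower of 8. The largest leukocyte rise entered the test through the AngII channels only, being well above background on 3 arrays in media. Among the endothelial markers that fell, 1 entered through the media channels only, with 3 AngII channels well above background. Only 2 neural markers were tested, of which 1 fell. Of all features 39.1% were higher and 38.1% lower. The part of these markers in the results below was not tested. In such bulk RNA, fewer cells of a type and less RNA per cell cannot be told apart.

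Of the 121 members, 61 were well above background on all 4 arrays in at least one RNA and were tested. Of the 60 others, 41 were not well above background in any channel of any array at any of their probes, and 19 were in some. Many untested members are carriers known from the mature nephron segments. They included the sodium-glucose cotransporters Slc5a1 and Slc5a2, all 3 sodium-phosphate cotransporters (Slc34a1, Slc34a2 and Slc34a3), the neutral amino acid carriers Slc6a18 and Slc6a19 of the proximal tubule, the sulfate and dicarboxylate carriers Slc13a1, Slc13a2 and Slc13a3, the proton exchanger Slc9a3 and the bicarbonate cotransporter Slc4a4. The diuretic targets Slc12a1 and Slc12a3, of the loop of Henle and the distal convoluted tubule, were not tested either. Of the 61 tested, 7 entered through one RNA only, being well above background on fewer than 4 arrays in the other, so their entry depended on that RNA.

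The tested carriers were split between the directions. In limma 47 of 61 passed at an adjusted p under 0.05, 21 higher and 26 lower under AngII, with a median of -0.03. That is 77.0% of them, against 77.3% of all features (39.1% higher, 38.1% lower), so the count is that of the background. By size, 6 of 61 (9.84%) differed at least 1.5-fold, 2 higher and 4 lower, against 10.9% of all features (5.5% higher, 5.4% lower), and none differed 2-fold, where 2.12% of features did. One sign on all 4 arrays was seen for 40 of 61, against 59.1% of all features. The standard error of a member's mean ratio was at most 0.04 in the limma fit, which averages the dyes first and so leaves out their difference. The median absolute log2 ratio was 0.19 for the members and 0.19 for all features. With the replicate number as a block on the 4 arrays, where the dye difference counts as error, 18 of the 61 tested members (29.5%) had an adjusted p under 0.05, against 31.0% of all features. Those 18 are all among the 47, and the ones named below are marked as passing with the block.

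**Figure D1:**
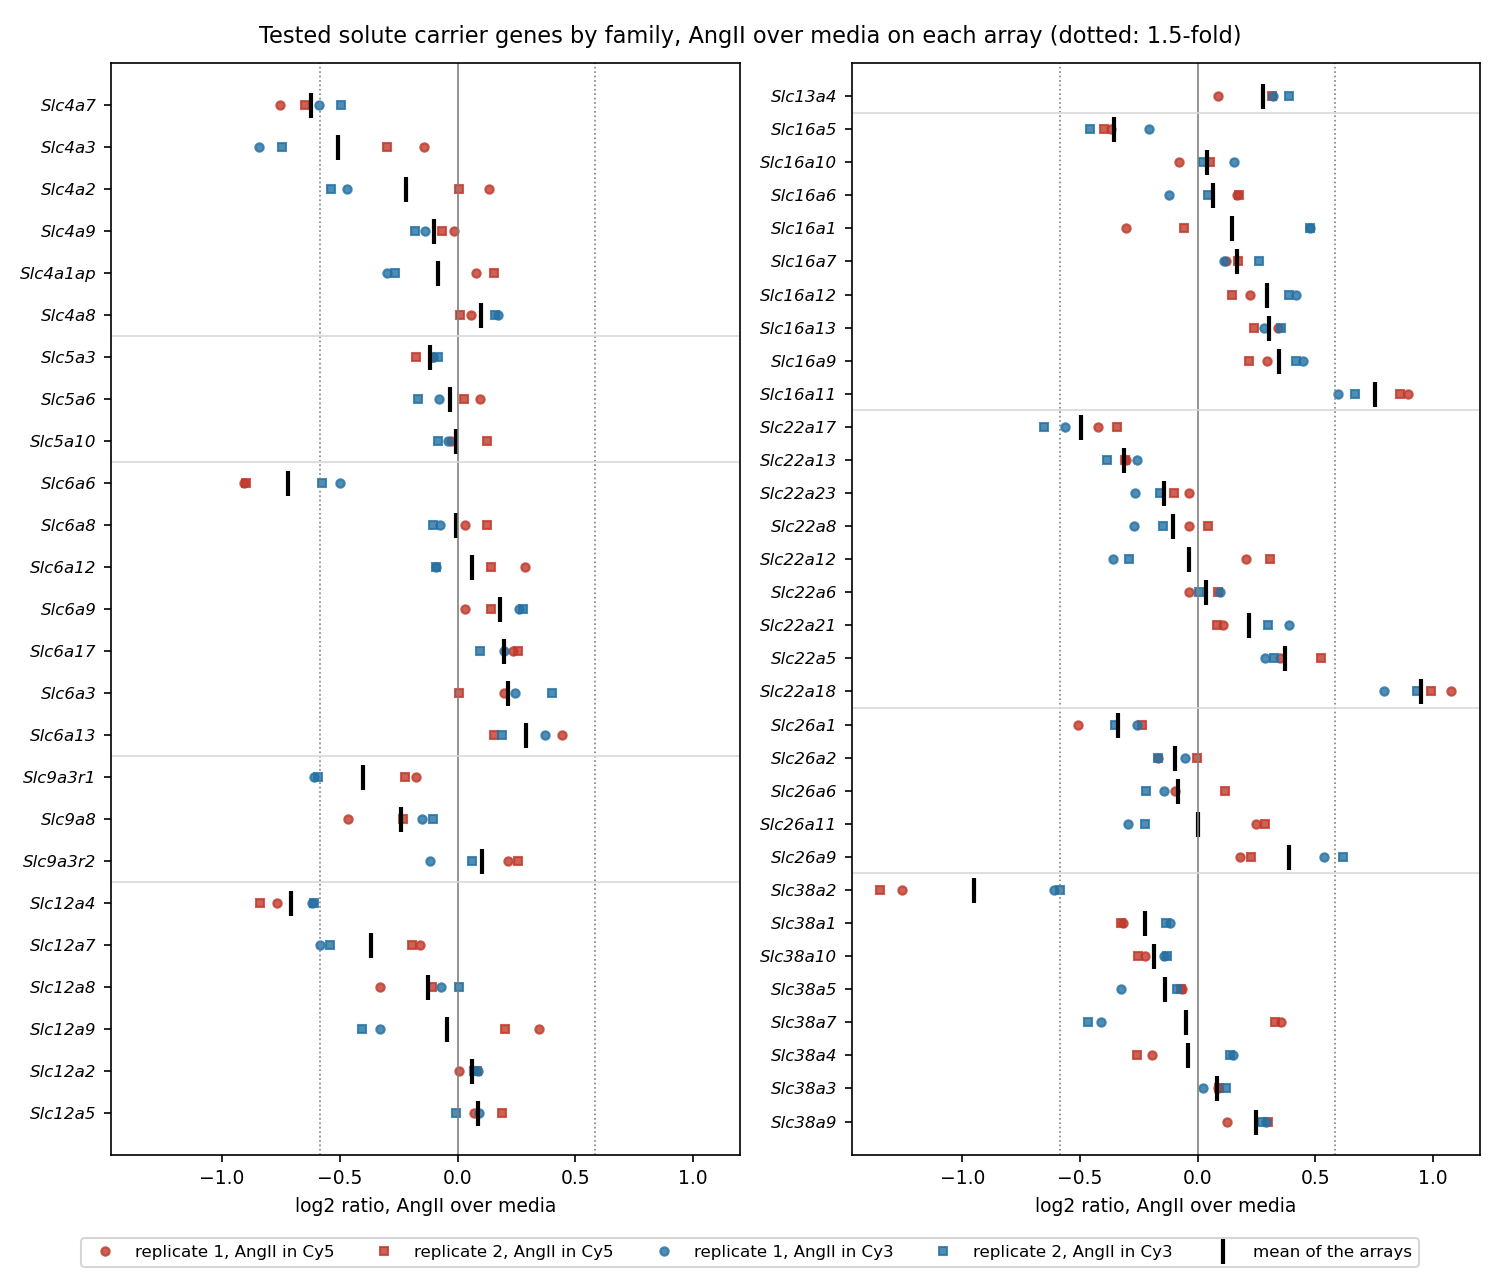
Log2 ratios of AngII over media (x axis) of 57 of the 61 tested members, grouped by family, with 1 point for each of the 4 arrays and a black bar for their mean. Red and blue points separate where the ratio depends on which dye carried AngII, and 6 genes have means beyond the dotted 1.5-fold lines.

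The 6 members beyond 1.5-fold had one sign on all 4 arrays, and all 6 passed with the block. Their limma adjusted p was at most 2.97e-15, and at most 0.0198 with the block. The 4 that fell were Slc38a2, Slc6a6, Slc12a4 and Slc4a7, and the 2 that rose were Slc22a18 and Slc16a11. In size just below them stood Slc4a3 at -0.51 and Slc22a17 at -0.50.

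Slc38a2 encodes SNAT2, the sodium-coupled importer of small neutral amino acids that many cells induce when amino acids run short or the medium turns hypertonic. Its log2 ratios were -1.26 and -1.35 in replicates 1 and 2 with AngII in Cy5, and -0.61 and -0.59 with AngII in Cy3, a mean of -0.95 (1.93-fold lower). All 4 arrays were lower, and the ratio differed by -0.71 between the dye orientations, the fall being larger with AngII in Cy5. Its normalised log2 intensity lay between 12.77 and 12.99 in the AngII channels and between 13.57 and 14.12 in the media channels, which do not overlap. A second probe of the gene had -0.84 (-1.19 to -0.55 over the arrays).

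Slc6a6 encodes the taurine transporter, which loads cells with an organic osmolyte. Its ratios were -0.91 and -0.90 with AngII in Cy5 and -0.50 and -0.58 with AngII in Cy3, a mean of -0.72 (1.65-fold lower). All arrays again showed the same direction, and a second probe had -0.45, with a narrow range of -0.47 to -0.42. Slc12a4 encodes KCC1, a potassium-chloride cotransporter that lets swollen cells lose salt. It had -0.77 and -0.84 with AngII in Cy5 and -0.62 and -0.61 with AngII in Cy3, a mean of -0.71 (1.63-fold lower). Slc4a7 encodes NBCn1, an electroneutral sodium bicarbonate cotransporter that brings base into the cell. It had -0.76 and -0.65 with AngII in Cy5 and -0.59 and -0.50 with AngII in Cy3, a mean of -0.62 (1.54-fold lower). One of its other probes gave -0.60 and the third -0.08 (-0.16 to 0.08), so its probes did not all show the fall.

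Slc22a18 lies in the imprinted cluster of distal mouse chromosome 7 and encodes a transporter of the organic cation carrier family whose substrates are not settled. Its ratios were 1.08 and 0.99 with AngII in Cy5 and 0.79 and 0.93 with AngII in Cy3, a mean of 0.95 (1.93-fold higher). The normalised log2 intensity lay between 9.40 and 9.69 under AngII and between 8.41 and 8.69 in media, with no overlap. Its second probe gave 0.01 (-0.23 to 0.21), so the rise rests on 1 probe. That second probe was dim, with a mean log2 intensity of 6.56 against 9.06. Dim ratios are pressed towards 0, but whether this accounts for the gap between the probes was not tested. Slc16a11 encodes MCT11, a proton-linked monocarboxylate carrier reported to move pyruvate. Its ratios were 0.89 and 0.86 with AngII in Cy5 and 0.60 and 0.67 with AngII in Cy3, a mean of 0.75 (1.69-fold higher). Every array was above 0 for both genes.

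**Figure D2:**
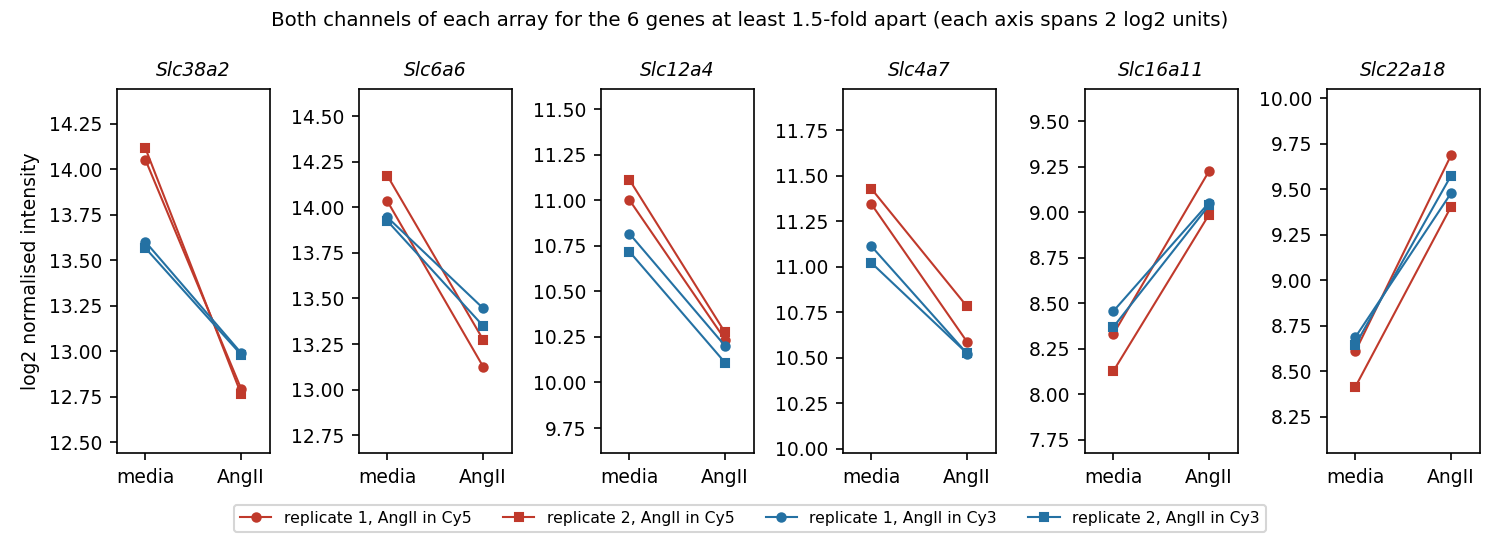
Normalised log2 intensity (y axis, each panel 2 log2 units tall) in the media and AngII channels of the 4 arrays, 1 line per array, for the 6 members at least 1.5-fold apart. All lines fall for Slc38a2, Slc6a6, Slc12a4 and Slc4a7 and rise for Slc16a11 and Slc22a18, and intensities of different genes cannot be compared.

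Promoter sequences of these genes are shown so that those that moved together can be set side by side. RefSeq windows (GRCm38.p6) were found for 5 of the 6, and the 250 bases before each start are printed 5′ to 3′ on the strand of the gene. Capitals mark matches on either strand to the letters TGANTCA (AP-1), TGACGTCA (CRE), TGATGNAA (the amino acid response motif CARE), GGGCGG (GC box) or TGGAAA (the invariant first letters of the tonicity motif TonE). The windows are chr15:96699729-96699978 (minus strand), chr8:105966116-105966365 (minus), chr14:14718534-14718783 (plus), chr11:70213660-70213909 (plus) and chr7:143473539-143473788 (plus).
Slc38a2: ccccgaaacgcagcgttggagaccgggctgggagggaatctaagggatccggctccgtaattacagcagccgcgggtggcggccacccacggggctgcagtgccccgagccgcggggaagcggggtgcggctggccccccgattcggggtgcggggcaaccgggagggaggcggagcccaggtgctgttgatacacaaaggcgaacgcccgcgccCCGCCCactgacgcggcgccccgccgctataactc
Slc12a4: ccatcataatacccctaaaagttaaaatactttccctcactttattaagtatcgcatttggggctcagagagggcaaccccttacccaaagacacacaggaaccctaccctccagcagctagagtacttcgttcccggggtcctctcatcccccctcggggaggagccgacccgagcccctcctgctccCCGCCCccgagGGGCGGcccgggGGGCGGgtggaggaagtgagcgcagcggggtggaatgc
Slc4a7: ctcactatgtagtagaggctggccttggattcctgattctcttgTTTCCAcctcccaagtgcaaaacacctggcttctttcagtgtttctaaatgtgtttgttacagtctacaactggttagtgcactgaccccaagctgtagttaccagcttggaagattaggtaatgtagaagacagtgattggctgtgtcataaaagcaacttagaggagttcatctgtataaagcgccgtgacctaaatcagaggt
Slc16a11: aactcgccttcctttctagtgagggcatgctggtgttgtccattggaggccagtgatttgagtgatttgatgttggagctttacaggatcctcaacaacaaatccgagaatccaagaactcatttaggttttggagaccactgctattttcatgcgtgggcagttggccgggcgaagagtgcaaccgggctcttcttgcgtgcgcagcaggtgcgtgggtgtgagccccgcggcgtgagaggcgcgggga
Slc22a18: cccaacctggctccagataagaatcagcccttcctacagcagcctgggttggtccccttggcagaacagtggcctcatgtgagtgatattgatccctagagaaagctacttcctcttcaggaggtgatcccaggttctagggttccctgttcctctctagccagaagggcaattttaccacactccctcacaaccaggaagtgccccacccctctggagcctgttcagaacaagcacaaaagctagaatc
The Slc38a2 window holds 1 GC box and the Slc12a4 window 3, while 32.7% of 32851 promoter windows hold at least 1. The Slc4a7 window holds 1 match to TGGAAA, present in 18.6% of windows. The Slc16a11 and Slc22a18 windows hold no match to any of the 5. No window held the AP-1, CRE or CARE letters, which 6.75%, 1.55% and 3.45% of windows hold. Sequence outside these windows, such as that after the start, was not searched. The lack of a match therefore does not show that a gene lacks the element. GC content ran from 43.6% for Slc4a7 to 72.0% for Slc38a2.

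Of 8 tested Slc38 genes, which include Slc38a2, 4 fell and 2 rose (median -0.09). Of 7 tested Slc6 genes 4 rose, and the 1 that fell was Slc6a6 (median 0.18). The shares over all features were 38.1% lower and 39.1% higher. Slc38a1, which encodes the glutamine importer SNAT1, fell with -0.32 and -0.33 in one dye orientation and -0.12 and -0.14 in the other (mean -0.22). Its second probe, dim at a mean log2 intensity of 6.27, had 0.09 (0.03 to 0.15). Slc38a10 fell by 0.19 and Slc38a5, a glutamine carrier that can run in both directions, by 0.14. Slc38a9, the lysosomal carrier that reports arginine to the growth kinase mTORC1, was the largest increase of its family at 0.25 (0.13, 0.30, 0.29 and 0.27) and passed with the block. The second probe of Slc38a9 had only 0.08 (-0.03 to 0.15), at a mean log2 intensity of 7.28 against 7.62. Slc38a4 had -0.04 (-0.26 to 0.15) and Slc38a7 -0.05 (-0.47 to 0.35), and neither passed.

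In the Slc6 family the largest increase was Slc6a13, which encodes the GABA and taurine carrier GAT2, with 0.44 and 0.15 in one orientation and 0.37 and 0.19 in the other (mean 0.29, passing with the block). Its second probe had 0.30. Slc6a3, the dopamine transporter gene, had 0.21 but was well above background on only 1 array in media. Slc6a17 had 0.20 and the glycine transporter gene Slc6a9 0.18, both of which rose. The creatine transporter gene Slc6a8 stood at 0.00 (-0.10 to 0.13) and the betaine transporter gene Slc6a12 at 0.06 (-0.09 to 0.29), and neither passed. Slc5a3, which imports the osmolyte myo-inositol, fell by 0.12 (-0.18 to -0.08; second probe -0.25). The remaining 2 tested Slc5 genes did not pass: the vitamin carrier gene Slc5a6 had -0.03 (-0.17 to 0.10) and Slc5a10 -0.01 (-0.08 to 0.12).

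Taurine, betaine, myo-inositol and SNAT2 carriers are known together as targets of the tonicity factor NFAT5, and a list of 11 such genes was taken in full. Of the 11, 9 fell, 1 rose and 1 did not pass (median -0.30), where 38.1% of all features were lower. The list was chosen with the falls of Slc38a2 and Slc6a6 known and holds both, as well as Nfat5 itself, so its count is a description and not independent evidence of a direction. The largest decreases after the HSP70 genes Hspa1b (-2.44) and Hspa1a (-2.30), which are near-identical and also answer to heat, were Slc38a2 and Slc6a6. The polyol enzyme gene Akr1b3 fell by 0.36 (-0.41 to -0.31) and Hspa4l by 0.30 (-0.55 to -0.02), while Aqp3, a water channel, rose by 0.88. Nfat5 itself fell by 0.09 (-0.13 to -0.01). The list holds 4 members of the carrier families, which went from -0.95 for Slc38a2 to 0.06 for Slc6a12. Of 16 tested amino acid carriers of other families, 11 rose and 3 fell, with a median of 0.11 and 0 beyond 1.5-fold, where 39.1% of all features were higher and 10.9% beyond 1.5-fold. The largest of them were Slc7a7 at 0.52, Slc43a3 at 0.50, Slc1a1 at -0.36 and Slc1a3 at -0.34. Slc1a1, 1 of the 3 that fell, was dim (mean log2 intensity 6.45). It entered the test through the media channels only, being well above background under AngII on 2 arrays. The list of amino acid carriers was likewise chosen with earlier results of these data known, so its counts are a description.

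Chloride cotransporters of the Slc12 family had 4 lower and 1 higher among 7 tested (median -0.13), where 38.1% of all features were lower and 39.1% higher. With the block 1 of the 4 kept its call, Slc12a4. Slc12a7, which encodes the potassium-chloride cotransporter KCC4, fell. It had -0.16 and -0.19 with AngII in Cy5 and -0.58 and -0.54 with AngII in Cy3 (mean -0.37) and did not pass with the block. Slc12a5, the neuronal cotransporter gene KCC2, was the family's largest increase at 0.09 (-0.01 to 0.19), and one of its arrays was below 0. Slc12a2, which encodes the chloride importer NKCC1, stood at 0.06 (0.01 to 0.09) and did not pass.

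Among the Slc4, Slc9 and Slc26 families of acid and bicarbonate carriers 16 genes were tested: 11 fell and 3 rose (median -0.10), where 38.1% of all features were lower. The 13 that encode carriers had 9 lower and 2 higher (median -0.10). With the block 2 of the 11 kept their call, Slc4a7 and Slc26a1, and 4 of the 16 turned sign with the dyes. Slc4a3, which encodes the anion exchanger AE3, had -0.14 and -0.30 with AngII in Cy5 and -0.85 and -0.74 with AngII in Cy3 (mean -0.51). Slc4a2, which encodes AE2, had 0.13 and 0.01 with AngII in Cy5 and -0.47 and -0.54 with AngII in Cy3, so its mean of -0.22 rests on one orientation. Slc4a8 was the family's largest increase at 0.10 (0.01 to 0.17), with 0.21 and 0.29 at its other probes.

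Slc9a3r1 encodes NHERF1, a scaffold that holds several of these carriers at the apical membrane. It fell, with -0.18 and -0.22 with AngII in Cy5 and -0.61 and -0.59 with AngII in Cy3 (mean -0.40). All arrays were below 0, and it did not pass with the block. The Golgi exchanger gene Slc9a8 fell by 0.24 (-0.47 to -0.10), with 0.09 at its dim second probe (mean log2 intensity 6.37). Slc9a3r2 was at 0.10 (-0.12 to 0.26). In the Slc26 family the sulfate carrier gene Slc26a1 had -0.51, -0.24, -0.26 and -0.35 (mean -0.34, passing with the block), but it was well above background under AngII on only 2 arrays. Slc26a9, a chloride channel and exchanger of epithelia, was the family's largest increase, with 0.18 and 0.23 in one orientation and 0.54 and 0.62 in the other (mean 0.39). The sulfate carrier gene Slc26a2 had -0.10 (-0.17 to 0.00) and the anion exchanger gene Slc26a6 -0.09 (-0.22 to 0.12), small falls in the test over the averaged dyes. The lysosomal carrier gene Slc26a11 did not pass, at 0.00 (-0.30 to 0.29).

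**Figure D3:**
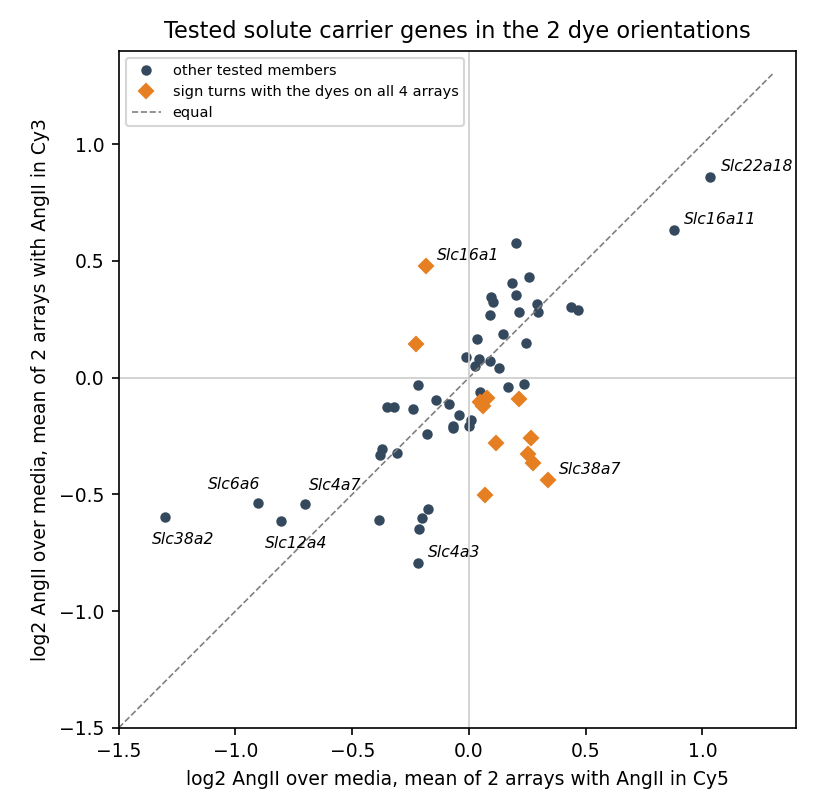
Mean log2 ratio over the 2 arrays with AngII in Cy5 (x axis) against that over the 2 arrays with AngII in Cy3 (y axis), 1 point per tested member, with a dashed line of equality. Orange diamonds are the 12 members whose sign turned with the dyes on all 4 arrays, and the 6 genes beyond 1.5-fold lie far from 0 on both axes.

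The sign turned with the dyes on all 4 arrays for 12 of 61 tested members (19.7%), against 21.7% of all features. Only 3 of the 12 passed on the averaged values, namely Slc4a2, Slc4a1ap and Slc16a1. The widest turn was that of Slc38a7, with 0.34 in one orientation and -0.44 in the other. A small ratio of such a gene is the mean of opposite readings, and does not show a lack of change.

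Of 10 tested genes of the monocarboxylate carrier family Slc16, 7 rose and 1 fell (median 0.23), where 39.1% of all features were higher. Of the 7, Slc16a9 and Slc16a12 entered the test through the AngII channels only, and among the 8 genes well above background in both RNAs 5 rose and 1 fell (median 0.16). Slc16a9, well above background on 3 arrays in media, had 0.34 (0.22 to 0.45), and Slc16a13 had 0.30 (0.24 to 0.35). The creatine carrier gene Slc16a12 had 0.29 (0.15 to 0.42) and was well above background on only 1 array in media. These 3 passed with the block, as did the family's largest decrease, Slc16a5, with -0.37, -0.40, -0.21 and -0.46 (mean -0.36). Slc16a1 encodes MCT1, the main lactate and pyruvate carrier, and its 3 probes disagreed. The brightest had -0.31 and -0.06 with AngII in Cy5 and 0.48 and 0.48 with AngII in Cy3 (mean 0.15), another 0.79 (0.44 to 1.12) and the last 0.04 (-0.30 to 0.33). Slc13a4, the only tested gene of the sulfate and dicarboxylate family, had 0.09, 0.32, 0.32 and 0.39 (mean 0.28) and passed with the block.

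Organic ion carriers of the Slc22 family split, with 3 higher and 4 lower of 9 tested and a median of -0.04, where 39.1% of all features were higher and 38.1% lower. Slc22a5, which encodes the carnitine importer OCTN2, rose with 0.35 and 0.52 in one orientation and 0.28 and 0.32 in the other (mean 0.37, passing with the block), and its second probe had 0.15 (-0.04 to 0.44). Its paralogue Slc22a21 rose by 0.22. Slc22a17, the receptor gene for the iron-binding protein lipocalin-2, was the largest decrease, with -0.42, -0.34, -0.56 and -0.65 (mean -0.50) and -0.43 at its second probe, and it passed with the block. Slc22a13 fell by 0.31 (-0.39 to -0.26) and passed with the block. It entered the test through the media channels only, with 3 AngII channels well above background. Slc22a23 fell by 0.14 (-0.27 to -0.04), while its other probe had 0.12. The proximal tubule carrier gene Slc22a6, for the organic anion transporter OAT1, was well above background in media on 3 arrays and had 0.04 (-0.04 to 0.09), which did not pass. Slc22a8, for OAT3, had -0.10 (-0.27 to 0.04).

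**Figure D4:**
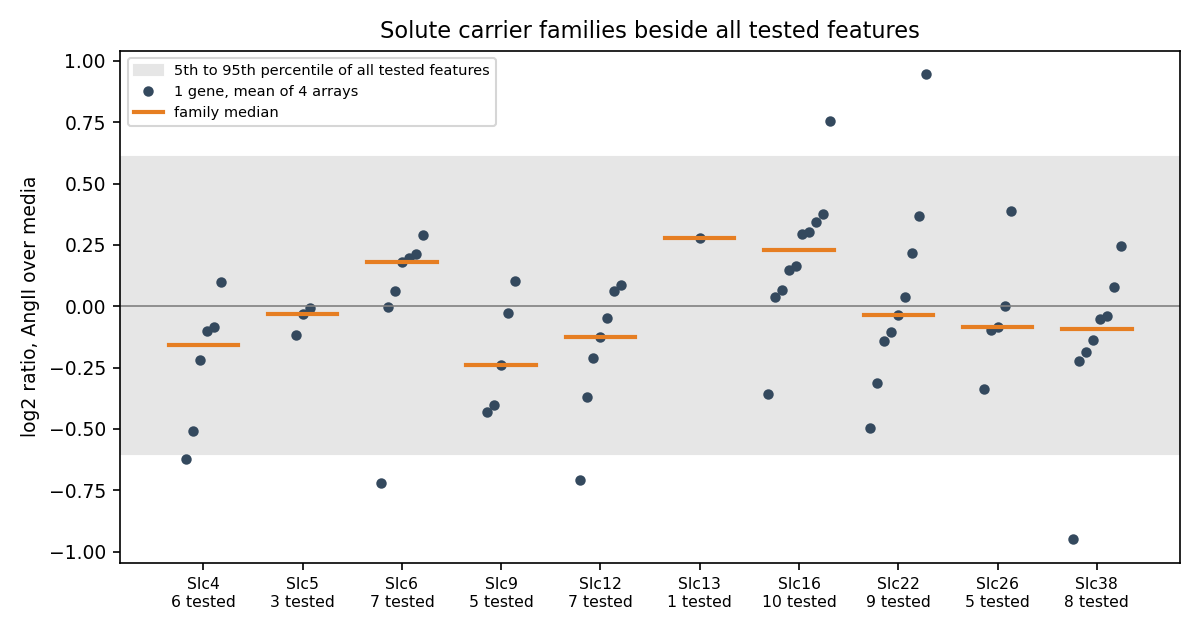
Mean log2 ratio over the 4 arrays (y axis) of each tested member by family, with family medians as orange bars and the 5th to 95th percentile of all tested features (-0.60 to 0.61) shaded. The 6 genes beyond the shading are those at least 1.5-fold apart, and family medians run from -0.24 for Slc9 to 0.28 for the single Slc13 gene.

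For 17 members more than 1 probe was tested, and in 2 of them, Slc16a1 and Slc22a18, a second probe differed from the brightest by over 1.5-fold. For Slc38a2, Slc6a13 and Slc22a17 the second probe lay within 0.11 of the first. With the mean of a gene's tested probes, 1 member was at least 1.5-fold higher and 2 were lower: Slc16a11, Slc38a2 and Slc12a4. Slc16a11 and Slc12a4 have only 1 probe each on the array, so averaging could not change them, and their ratios rest on that probe. Slc22a18 then had 0.48, Slc6a6 -0.58 and Slc4a7 -0.44, with limma adjusted p of at most 5.05e-11 for these 3.

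**Figure D5:**
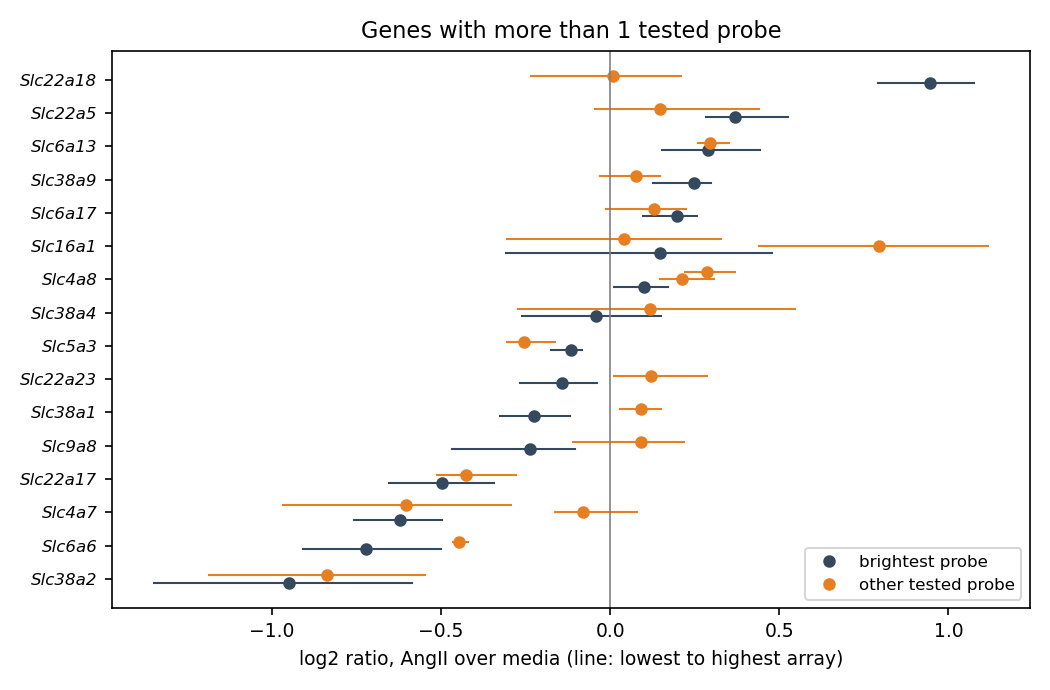
Log2 ratios of AngII over media (x axis) of each tested probe of 16 of the 17 members with more than 1, as the mean of 4 arrays with a line from the lowest to the highest array. Dark points are the brightest probes used in the text, and orange points the other probes, which lie far from the dark point for Slc22a18, Slc16a1 and Slc4a7.

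Of 25 tested partners and regulators of the carriers, 11 rose and 11 fell (median 0.05), where 39.1% of all features were higher and 38.1% lower. Beyond 1.5-fold were 5 (20.0%), against 10.9% of all features and 9.84% of the tested members. The list was chosen with earlier results of these data known, so this share is a description and not independent evidence of enrichment. Tesc, whose product tescalin is a calcium-binding partner of a sodium-proton exchanger, rose by 1.20 (0.95 to 1.31). Pdzk1 and Pdzk1ip1, which encode a scaffold of apical transporters and its small membrane partner, rose by 1.04 (0.78 to 1.25) and 0.66 (0.59 to 0.73). Oxsr1, a kinase that acts on Slc12 cotransporters after the WNK kinases, fell by 0.78 (-0.84 to -0.70), and Ezr, which ties such scaffolds to actin, fell by 0.70. Stk39, the kinase gene most like Oxsr1, had 0.25 with a wide range of -0.20 to 0.72, Wnk1 had -0.07 (-0.29 to 0.19) and did not pass, and Wnk4 rose by 0.18. The MCT chaperone genes Bsg at 0.05 (-0.13 to 0.23) and Emb at 0.06 (0.02 to 0.10) did not pass.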

How the data were processed

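Total RNA (300 ng) was labelled with Cy3 or Cy5 and hybridised to 4 two-colour Agilent mouse arrays. Per the file headers, the scanner software was Feature Extraction 10.5.1.1. The deposited intensity values are median pixel signals of spot and local background, and a processed intensity that is background-subtracted and dye-normalised; scanner tables also hold a log10 ratio of red over green and flags scored 0 or 1. The authors' deposited table holds log2 ratios, mean log2 intensities, an adjusted p-value and a call scored -1, 0 or 1. Per the submitters' processing notes limma was used, in a version and design not given in the sources used here. That table correlated with the ratios computed here at r = 0.995 across features.

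Here, in R 4.3.3 with limma 3.58.1, signals were corrected by normexp (offset 50) and normalised by loess within arrays, with control spots at weight 0 and outlier-flagged spots left out; no spot was saturated. Arrays with AngII in Cy3 were turned. A probe was tested if well above background in one RNA on all 4 arrays, and the brightest tested probe stood for a gene, which left 14995 features. Names came from accessions matched to RefSeq (GRCm38.p6), for 25097 of 41174 probes; the array annotation is of mm9, so no gene coordinates are given apart from the RefSeq promoter windows. Between 19028 and 21922 probes were well above background in a channel, and the number of arrays limits the precision. Arrays of a dye swap were averaged, and the 2 ratios tested against 0 with lmFit and eBayes, with Benjamini-Hochberg adjustment over all features. Because each array pairs RNAs of 1 number, the ratio is the pairing. Channel intensities were quantile-adjusted on the mean intensity (Aquantile). The fit was tested on simulated data.

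The members and gene lists were chosen with earlier results of these data known. Genes named were all members at least 1.5-fold apart with one sign on all arrays, the brightest, highest and lowest tested member of each family, and a set fixed by name; others are given to complete a family and were chosen after their values were seen. Some members and markers are not reported here by name, and are left out of the figures that name genes; they remain in the counts. Alternatives covered background correction, normalisation, the filter, the choice of probe, the replicate block, single dye orientations, each replicate left out and the authors' table.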

Additional observations from a re-analysis of the deposited data

Results flagged for a closer look

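For 6 of the 36 genes named by rule, both arrays of one dye orientation lay above 0 and both of the other below 0. The difference of the log2 ratio, AngII in Cy5 minus AngII in Cy3, was -0.66 for Slc16a1 (limma adjusted p = 0.000156), 0.57 for Slc4a2 (0.00011), 0.53 for Slc26a11 (0.000106) and -0.37 for Slc38a4 (0.000675). It was 0.31 for Slc6a12 (limma adjusted p = 0.00377) and 0.18 for Slc5a6 (0.0308). Among all tested features 21.7% turned sign in this way.

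Of the same 36 genes, Slc38a9 had 1 array apart from the others: replicate 1 with AngII in Cy5 read 0.13, against 0.27 to 0.30 on the other arrays, a gap of 0.839 of the whole range. Chance alone sets apart about 1 in 20 groups of 4 in this way.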

How the results depend on the processing

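The 6 genes beyond 1.5-fold kept their direction in every alternative run and an adjusted p under 0.05 in every one with a test, between -1.30 and -0.60 for Slc38a2 and between 0.48 and 1.04 for Slc22a18. The counts of members at least 1.5-fold higher and lower, 2 and 4, became 7 and 10 with Agilent's processed signals, where 23.6% of all features passed that size, and 5 and 8 with a normexp offset of 10, where 15.7% did. They became 1 and 2 when the probes of each gene were averaged, where 9.70% of features did. In the replicate block fit on the 4 arrays, 10 members passed higher and 8 lower, in place of 21 and 26. The members' median of -0.03 was -0.0823 with processed signals, 0.00348 with median centring, -0.0071 with no filter on dim probes, -0.0101 with averaged probes, 0.0474 over the arrays carrying AngII in Cy5 and -0.0939 over those carrying it in Cy3; the median of all features was -0.0612, 0.0152, -0.00133, -0.00298, 0.0357 and -0.0269 under the same settings. Leaving out 1 replicate gave 2 higher and 3 to 4 lower members and medians of -0.05 to -0.02, with no test. Leaving out the 3 genes that encode no carrier, chosen after seeing the data, changed no count at 1.5-fold. On the Cy5 arrays alone Slc16a1 had -0.183, Slc26a6 0.0104 and Slc4a2 0.0700, and on the Cy3 arrays alone Slc26a11 had -0.261, Slc38a4 0.145 and Slc9a3r2 -0.0271, each the opposite of its mean over all arrays. Of 427 comparisons of single named genes that had a test, 368 kept direction and side of the threshold, 37 lost the call and 6 gained it; the sign changed in 4 of genes that passed and 12 of genes that had not; the cause was not tested. Dim genes near background have ratios pressed towards 0, so their small values do not show a lack of change.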
